A study of Homo sapiens with 18 samples.

Results

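SW480 and LS174T, a pair of established human colorectal cancer cell lines, were compared in ethanol, the vehicle of the treatment, without calcitriol. The comparison took 6 of the 18 BeadChip arrays, 3 of SW480 and 3 of LS174T, and every named probe with a detection p under 0.05 on at least 3 of the 6. By that rule 16333 of the 30113 probes with a gene symbol were members, reading 12252 of 20046 genes. Each gene was read by its brightest passing probe. Both lines were kept 16 h in medium whose serum had been treated with charcoal, which is low in steroid hormones, and ethanol was the only addition. The other arrays of the study hold the same lines in 50 nM calcitriol, the active form of vitamin D, and a further line, HCT116, in both conditions. The labels number the 3 replicates of each group but do not call them separate cultures. The p-values thus measure the spread between replicate arrays, pooled over all 18 arrays, which may be technical.

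Both lines are epithelial tumour cells of the colon that carry an activated Wnt pathway, SW480 through a truncated APC protein and LS174T through a stabilised beta-catenin. The colon epithelium renews itself from crypt stem cells, whose descendants become mucus-secreting goblet cells, hormone-secreting enteroendocrine cells or absorptive enterocytes, and the CDX transcription factors help to hold that intestinal identity. LS174T is widely used as a mucin-producing line, and SW480 is known for a less differentiated, partly mesenchymal look. A cell line is a single lineage adapted to culture, so a difference between a pair of lines describes these lines and not classes of tumour.

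Between 19918 and 20841 probes were detected on each of the 6 arrays, 42.1% to 44.0% of all probes with an identifier. Replicate arrays correlated at 0.990 to 0.993 and arrays of different lines at 0.787 to 0.794. The median SD between replicates was 0.13 log2 units in SW480 and 0.12 in LS174T. Levels are normalized log2 intensities, and every signed difference is SW480 minus LS174T with its standard error from the limma fit (SE, n = 3 arrays per line). Where a probe was detected on no array of a line, the fold is a lower bound, which sets the mean of the brighter line against, per array of the other, the probe's own value or that array's lowest detected value, whichever is higher. Adjusted p-values are from limma with Benjamini-Hochberg adjustment over all 16333 probes.

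In all, 8520 of 12252 genes (69.5%) passed an adjusted p of 0.05, of which 4262 were higher in SW480 (34.8%) and 4258 higher in LS174T (34.8%). A difference of at least 2-fold on top of that was met by 3688 genes (30.1%), 1880 of them higher in SW480 (15.3%) and 1808 higher in LS174T (14.8%). The 3 arrays of a line all lay above the 3 of the other for 4458 genes in favour of SW480 (36.4%) and for 4457 in favour of LS174T (36.4%). The median difference over all genes was -0.0034 and the median size of a difference 0.57. A count of members in any list below has to be read against these shares, since most genes of the table passed in a direction. Under another scaling, by array medians, 60.5% of the called genes were higher in SW480 in place of 50.0%, and the median of all genes moved to 0.16.

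Much of the extreme end of the comparison was presence against absence. Of the genes, 791 were detected on all 3 SW480 arrays and on no LS174T array, and 568 on all 3 LS174T arrays and on no SW480 array. Such genes entered through the line in which they were high and so had to differ: 782 and 557 of them were called. Adjusted p-values printed below for such genes are therefore no added support for a difference. The 9467 genes detected on all 6 arrays had no such entry, and 6525 of them were called (68.9%), 3131 higher in SW480 (33.1%) and 3394 higher in LS174T (35.9%). At least 2-fold differences were found for 2155 of these genes (22.8%), 1019 higher in SW480 (10.8%) and 1136 higher in LS174T (12%). Probes just inside the detection rule, on exactly 3 arrays, had a median level of 5.70 and a median difference of 1.62 in size, and probes just outside it, on exactly 2 arrays, a median level of 5.29 and a median difference of 0.32.

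**Figure D1:**
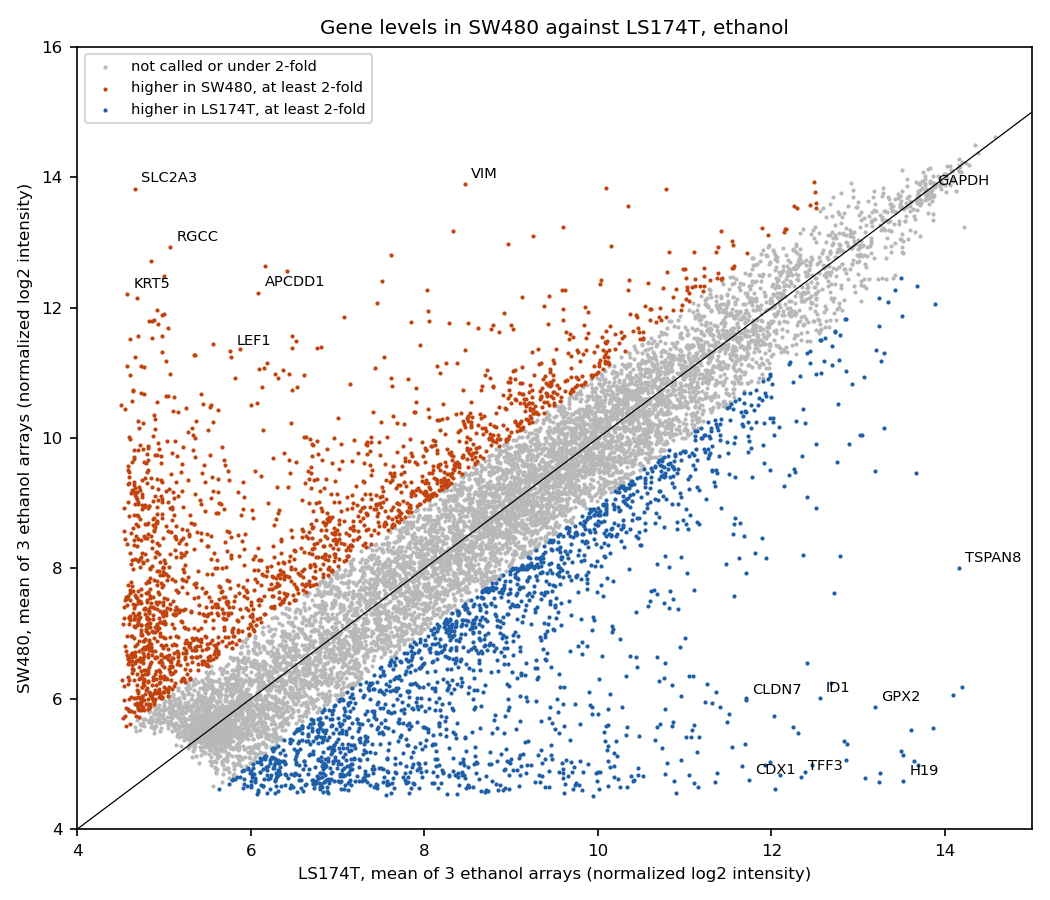
Mean normalized log2 intensity of each gene over 3 SW480 ethanol arrays (vertical axis) against 3 LS174T ethanol arrays (horizontal axis), with the line of equality. Coloured points are genes past an adjusted p of 0.05 with at least a 2-fold difference, in orange where higher in SW480 and in blue where higher in LS174T. Points along the left and lower edges are genes detected in 1 line, such as SLC2A3 at 13.83 in SW480 and H19 at 13.52 in LS174T.

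Of the genes detected in SW480 alone, SLC2A3, RGCC and TGM2 had the largest bounds. SLC2A3, a high-affinity glucose transporter of neurons and tumours, read 13.86, 13.79 and 13.83 on the SW480 arrays and 4.69, 4.70 and 4.60 on the LS174T arrays. The LS174T values are those of an undetected probe, and SLC2A3 was at least 332-fold higher in SW480 (adjusted p = 3.48e-19). RGCC, a cell cycle regulator, read 13.06, 12.91 and 12.82 in SW480 and was at least 178-fold higher there (adjusted p = 1.59e-18). TGM2, the protein-crosslinking tissue transglutaminase, read 12.70, 12.73 and 12.70 and was at least 153-fold higher. In all 3 genes the SW480 arrays lay close together, and the naming rule required that they lie above the LS174T arrays.

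LMO2, a transcriptional adaptor of blood and vessel development, was at least 132-fold higher in SW480 (adjusted p = 2.13e-17). PRF1, the pore-forming protein of killer lymphocytes, was at least 82.2-fold higher (adjusted p = 8.02e-16), and NPTX2, a neuronal pentraxin, at least 103-fold higher (adjusted p = 4.54e-19). KRT5, a keratin of basal cells in stratified epithelia, read 12.16, 12.27 and 12.21 in SW480 and 4.58, 4.56 and 4.58 in LS174T, at least 108-fold higher in SW480 (adjusted p = 3.44e-20). By background these are genes of blood, nerve and squamous tissue, and markers of other cell types were read beside them. Of 11 leukocyte markers with a probe, CD3E, CSF1R and NKG7 were detected on no array, and the summed linear level of the list was 1448 to 1647 on the SW480 arrays and 1558 to 1765 on the LS174T arrays. Of 9 endothelial markers 6 were detected on no array, PECAM1 and CDH5 among them, with sums of 397 to 462 in SW480 and 280.0 to 289 in LS174T. CD3D, a T cell receptor subunit, was at least 1.78-fold higher in SW480 (adjusted p = 3.93e-09), while LYZ, the lysozyme of myeloid and Paneth cells, differed by -1.93 ± 0.18 (SE) (adjusted p = 7.23e-08). The part of such cells in these values was not tested.

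Among genes detected on all 6 arrays, the largest difference in favour of SW480 was that of BEX3, an X-linked adaptor of neurotrophin signalling. It read 12.63, 12.59 and 12.72 in SW480 and 6.18, 6.36 and 5.93 in LS174T, 89.6-fold higher in SW480 (adjusted p = 2.71e-17). Its other probes differed by 5.56 and 2.71. SLC7A8, a neutral amino acid transporter subunit, read 12.36, 12.71 and 12.60 against 6.14, 6.77 and 6.34, 70.6-fold higher (adjusted p = 8.03e-15). Its other probes, undetected in LS174T, differed by 1.68 and 1.01. MPP1, a membrane scaffold protein of red cells, was 58.7-fold higher, TUBB2B, a tubulin of developing neurons, 36.9-fold higher, and AK4, a mitochondrial adenylate kinase, 31.4-fold higher. The other AK4 probes differed by 0.78 to 5.78. Genes of this group were named only where the 3 SW480 arrays lay above the 3 LS174T arrays, so that separation is no result. CMTM3, with a difference of 4.97 ± 0.17 (SE) in its brightest probe, was not read alike by its other passing probe, which differed by -0.07 (adjusted p = 0.815).

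LS174T had a group of its own at the top, the cancer-testis antigens of the GAGE family, X-linked genes that are normally silent outside the germ line. GAGE12F read 13.72, 13.72 and 13.64 on the LS174T arrays and 4.84, 5.09 and 5.01 on the SW480 arrays, which did not detect it. It was at least 310.0-fold higher in LS174T (adjusted p = 1.46e-18), followed by GAGE12C (at least 298-fold), GAGE12B (at least 274-fold), GAGE2A (at least 202-fold) and GAGE7 (at least 132-fold). GAGE12J, GAGE4 and GAGE12G were detected on all 6 arrays at 5.55 ± 0.15, 6.18 ± 0.026 and 6.06 ± 0.41 in SW480 (SD, n = 3) and differed by -8.32, -8.02 and -8.02. GAGE genes are near-identical copies whose probes may read each other, so these values are not independent. MAGEA12 and MAGEA6, of another cancer-testis family, were at least 23.0-fold and at least 27.2-fold higher in LS174T. Of 40 listed cancer-testis genes 38 had a named probe and only 10 passed the detection filter: 6 were higher in LS174T, 1, SPANXB1, was higher in SW480 by 1.14 ± 0.14 (SE), and 3 did not pass the test. Of the 3 listed genes detected on all 6 arrays 1, GAGE12J, was higher in LS174T and none in SW480. Of the GAGE genes described here only GAGE12J and GAGE2A are on that list, so its counts leave the others out.

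Outside the GAGE family, H19, PPP1R1B and S100P were among the largest bounds in LS174T. H19, an imprinted noncoding RNA of fetal tissue, read 13.53, 13.52 and 13.52 in LS174T and 4.65, 4.61 and 4.95 in SW480, at least 275-fold higher in LS174T (adjusted p = 1.18e-18). PPP1R1B, a phosphatase inhibitor first known from dopamine-responsive neurons, was at least 228-fold higher (adjusted p = 2.44e-17) in its brightest probe. Its other probes differed by -2.13 and -1.61. S100P, a calcium-binding protein of gastrointestinal tumours, was at least 174-fold higher (adjusted p = 3.17e-19). ADGRG1, an adhesion receptor, was detected on all arrays and read 12.39, 12.24 and 12.12 against 5.54, 5.53 and 5.61 (103-fold higher in LS174T, adjusted p = 2.26e-18). TSPAN8, a tetraspanin of intestinal epithelium, read 14.23, 13.99 and 14.25 against 8.08, 8.01 and 7.93 (71.0-fold higher, adjusted p = 2.04e-16).

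Goblet and mucus genes were higher in LS174T. Of 40 listed, 38 had a named probe and 29 passed the detection filter, 16 of them detected in LS174T alone. The test called 25 higher in LS174T and 3 higher in SW480, with a median difference of -2.81 against -0.0034 over all genes. Over the 9 members detected on all 6 arrays, 7 were higher in LS174T and 1 in SW480. AGR2, a disulfide isomerase that folds mucins, read 13.16, 13.27 and 13.28 in LS174T and 4.63, 4.64 and 4.91 in SW480, where no array detected it. The other AGR2 probe differed by -4.34. TFF3, the trefoil peptide secreted with colonic mucus, read 12.33, 12.29 and 12.42 against 4.87, 4.74 and 4.81. The bounds were at least 226-fold for AGR2 (adjusted p = 5.24e-19) and at least 122-fold for TFF3 (adjusted p = 1.46e-18). Both genes were also named for their bounds, a rule that required lines without overlap.

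MUC2, the gel-forming mucin of the colon, was nearer to the detection limit in SW480. It read 5.53, 4.83 and 5.65 there, detected on 2 arrays, and 9.22, 9.15 and 9.10 in LS174T, a difference of -3.82 ± 0.25 (SE) (adjusted p = 6.93e-10). ATOH1, the transcription factor that commits crypt cells to the secretory lineage, read 6.76, 6.34 and 5.93 in LS174T, the most scattered of the goblet genes described here, and 4.68, 4.59 and 4.70 in SW480, and was at least 1.90-fold higher in LS174T (adjusted p = 4.6e-08). REG4, a secreted lectin, was at least 44.7-fold higher and SPINK1, a trypsin inhibitor of mucous cells, at least 28.2-fold higher. TFF1, the gastric-type trefoil peptide, was at least 24.3-fold higher, and FCGBP, a structural protein of mucus, at least 13.2-fold. KLF4, a factor of goblet cell maturation, was detected in both lines and was 15.7-fold higher in LS174T (adjusted p = 4.74e-13). The exceptions were MUC1, a membrane-bound mucin, at least 3.17-fold higher in SW480 (adjusted p = 1.55e-09), SYTL2, a vesicle-docking protein, which differed by 1.52 ± 0.13 (SE) (adjusted p = 1.79e-08) in its brightest probe but by 0.052 and 0.40 in its other probes (adjusted p = 0.891 and 0.102), and MUC12, another membrane mucin, by 0.80 ± 0.19 (SE) (adjusted p = 0.00113). In bulk RNA, fewer cells expressing a gene and less RNA per cell cannot be told apart.

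The enzymes that build mucin sugars were split. Of 30 listed, 21 passed the filter, 11 were higher in LS174T and 5 in SW480, with a median of -0.41, and over the 10 detected on all 6 arrays 3 and 3, with a median of -0.17. Core enzymes lay on both sides. On the LS174T side GCNT3, the core branching enzyme of mucous tissue, read 10.17, 10.46 and 10.34 against 5.39, 5.44 and 5.49 (-4.88 ± 0.091 (SE), adjusted p = 4.41e-17). ST6GALNAC1, which adds sialic acid to the first sugar, was at least 19.4-fold higher, and the fucosyltransferases FUT3 and FUT2, which make Lewis and secretor antigens, at least 16.2-fold and at least 10.3-fold higher. GCNT1, a branching enzyme of leukocytes and other tissues, differed by 1.85 ± 0.14 (SE) towards SW480 (adjusted p = 3.24e-09). C1GALT1, another core enzyme, was detected on all 6 arrays and differed by 0.97 ± 0.12 (SE) towards SW480 (adjusted p = 1.38e-06). GALNT6, which starts the sugar chain, differed by 1.03 ± 0.26 (SE) towards SW480 (adjusted p = 0.00201), and its LS174T arrays were uneven at 6.69, 6.83 and 7.76.

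Genes of absorptive enterocytes went mostly the same way. Of 42 listed only 17 passed the filter, 24 being detected on too few arrays of either line. LS174T was higher for 12 and SW480 for 2, with a median of -2.29, and over the 7 detected on all 6 arrays for 4 and 2, with a median of -0.57. LGALS4, a galectin of the brush border, read 12.38, 12.48 and 12.31 in LS174T and 4.93, 4.73 and 4.99 in SW480, at least 126-fold higher (adjusted p = 2.61e-18). GPA33, the colon antigen A33, read 12.40, 12.34 and 12.18 against 5.82, 5.45 and 5.13 (-6.84 ± 0.21 (SE), adjusted p = 2.56e-14). The carcinoembryonic antigen genes CEACAM6 and CEACAM5 were at least 40.9-fold and at least 18.2-fold higher in LS174T, while CEACAM1 of the same family was 3.55-fold higher in SW480 (adjusted p = 1.8e-08). VIL1, which bundles the actin of microvilli, was detected in both lines at 8.93, 8.81 and 8.81 and 6.45, 6.39 and 6.43 (-2.43 ± 0.086 (SE), adjusted p = 1.7e-13). SLC26A2, a sulfate transporter, was the other member higher in SW480, by 1.17 ± 0.20 (SE).

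Of the transcription factors that set intestinal identity, 12 of the 18 that passed were higher in LS174T and 3 in SW480, with a median of -1.54, and over the 10 detected on all 6 arrays 6 and 1, with a median of -0.87. The paired factors CDX1 and CDX2 parted. CDX1 read 11.63, 11.71 and 11.88 in LS174T and 4.68, 4.64 and 4.93 in SW480, undetected there and at least 80.0-fold higher in LS174T (adjusted p = 5.68e-18). CDX2 read 11.32, 11.53 and 11.47 and 10.45, 10.65 and 10.37, detected in both and 1.93-fold higher in LS174T (adjusted p = 1.4e-06). FOXA1, a pioneer factor of endodermal tissues, was at least 51.5-fold higher and EHF, an epithelial ETS factor, at least 40.0-fold higher. PPARG, a nuclear receptor of fatty acids that is abundant in colon, read 11.44, 11.50 and 11.54 against 6.15, 5.42 and 5.35 (-5.85 ± 0.17 (SE), adjusted p = 1.32e-14), and HNF4G, a nuclear receptor of enterocytes, was at least 8.47-fold higher. MAF, GFI1 and PITX1 went the other way, at 2.04, 1.08 and 0.97 (adjusted p = 2.64e-08 for PITX1). Enteroendocrine genes showed no common side: of 28 listed 9 passed, 4 higher in SW480 and 3 in LS174T, and 1 and 1 of the 4 detected on all 6 arrays, with PCSK1N, a prohormone convertase inhibitor, at least 16.6-fold higher in SW480 and UCHL1, a neuronal ubiquitin hydrolase, at least 12.7-fold higher in LS174T.

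CDX factors bind an AT-rich core, here written as TTTATG, and the promoters of AGR2 and REG4 are shown because these goblet genes were at the detection floor in SW480 and their start sites hold that core. Of the 35 goblet and enterocyte genes at least 2-fold higher in LS174T, 29 had a promoter in the RefSeq table of build GRCh38.p14 (300 bases around the start), and 5 of these held TTTATG on either strand (17.2%), namely AGR2, AGR3, KRT20, MUC2 and REG4. Of all 27305 promoters held there, 10.97% had it. Capitals mark the core or its reverse complement CATAAA. The AGR2 window is chr7:16804950-16805249 and the REG4 window chr1:119811411-119811710, both on the minus strand and printed 5′ to 3′ along the gene. A match in letters is a description and no measured binding.
AGR2: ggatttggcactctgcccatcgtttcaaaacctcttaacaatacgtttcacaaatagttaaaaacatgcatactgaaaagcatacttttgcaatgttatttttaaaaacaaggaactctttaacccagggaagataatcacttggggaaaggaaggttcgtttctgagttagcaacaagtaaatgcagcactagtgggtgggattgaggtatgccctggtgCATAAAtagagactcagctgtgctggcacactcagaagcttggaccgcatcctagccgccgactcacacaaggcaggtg
REG4: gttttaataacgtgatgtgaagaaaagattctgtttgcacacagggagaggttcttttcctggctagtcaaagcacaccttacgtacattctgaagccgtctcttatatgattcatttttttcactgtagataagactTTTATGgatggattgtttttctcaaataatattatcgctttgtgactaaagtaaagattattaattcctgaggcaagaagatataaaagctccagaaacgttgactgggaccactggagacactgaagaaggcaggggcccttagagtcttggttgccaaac

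Epithelial adhesion genes were higher in LS174T by a broad margin, with E-cadherin itself among the smaller differences. Of 45 listed, 38 passed the filter: 28 were higher in LS174T, 4 in SW480 and 6 did not pass the test, with a median of -1.82. Over the 23 members detected on all 6 arrays, 16 were higher in LS174T and 3 in SW480, with a median of -1.08. CLDN7, a tight junction claudin, read 11.57, 11.78 and 11.77 in LS174T and 5.98 ± 0.031 (SD, n = 3) in SW480, 52.9-fold higher (adjusted p = 2.26e-18). CDH17, the liver-intestine cadherin, read 12.31, 12.51 and 12.40 against 6.64, 6.50 and 6.49, 58.0-fold higher (adjusted p = 1.33e-16). RAB25, a GTPase of apical recycling in epithelia, read 11.43, 11.38 and 11.30 against 5.07, 4.75 and 4.75, undetected in SW480 and at least 61.9-fold higher in LS174T (adjusted p = 1.68e-16).

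EPCAM, the epithelial cell adhesion molecule by which carcinoma cells are captured, was bright in both lines, at 13.85, 14.01 and 13.80 and 12.01, 12.17 and 12.01 (3.54-fold higher in LS174T, adjusted p = 2.84e-11). CDH1, which encodes E-cadherin, read 8.48, 8.54 and 8.27 in LS174T and 7.87, 7.83 and 7.66 in SW480, a difference of -0.65 ± 0.094 (SE) (adjusted p = 1.12e-05) with no overlap between the lines. DSC2, a desmosomal cadherin, differed by -5.74 ± 0.18 (SE) and CRB3, a polarity protein of the apical membrane, by -4.58 ± 0.18 (SE) (adjusted p = 8.55e-13). The members higher in SW480 were CXADR, a junctional receptor for coxsackie and adenovirus, by 0.68 ± 0.10 (SE), TJP1, which encodes ZO-1, by 0.62 ± 0.11 (SE), PKP2, a desmosomal plaque protein, by 0.33 ± 0.088 (SE), and CTNND1, which encodes p120-catenin, at least 1.31-fold in a probe that LS174T did not detect. The other CTNND1 probe differed by 0.035 (adjusted p = 0.864). None of these 4 was measured at 2-fold.

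The E-box CAGGTG is the site that ZEB and SNAI repressors recognise in epithelial promoters, and the promoters of RAB25 and CRB3 are shown as examples that hold it more than once. Of 24 adhesion genes at least 2-fold higher in LS174T, 10 had a promoter in the table and 5 held CAGGTG on either strand (50.0%), namely CLDN3, CRB3, DSC2, DSG2 and RAB25, against 20.6% of all 27305 promoters. RAB25 and DSG2 had 2 matches each and CRB3 5. Capitals mark the E-box or its reverse complement CACCTG. As above, a match in letters is a description and no measured binding, and repression through these sites was not tested. The windows are chr1:156060910-156061209 and chr19:6464021-6464320 of GRCh38.p14, both on the plus strand.
RAB25: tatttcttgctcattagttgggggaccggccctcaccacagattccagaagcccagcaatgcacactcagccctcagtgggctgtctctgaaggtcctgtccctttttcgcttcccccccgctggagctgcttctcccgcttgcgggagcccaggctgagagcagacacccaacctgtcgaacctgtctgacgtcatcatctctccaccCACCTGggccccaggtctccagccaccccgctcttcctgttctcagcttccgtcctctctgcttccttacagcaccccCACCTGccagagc
CRB3: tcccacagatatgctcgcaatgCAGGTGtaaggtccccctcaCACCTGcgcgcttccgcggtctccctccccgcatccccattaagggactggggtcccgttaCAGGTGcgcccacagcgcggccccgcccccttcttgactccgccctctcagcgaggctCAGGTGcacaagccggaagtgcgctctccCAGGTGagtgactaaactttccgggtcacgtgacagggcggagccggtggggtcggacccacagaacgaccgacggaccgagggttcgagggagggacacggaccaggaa

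The repressors themselves were mostly below detection. ZEB1 was detected on 2 SW480 arrays and on no LS174T array, with means of 5.85 and 4.66, and so did not pass the detection rule. ZEB2, SNAI1, TWIST1, FN1 (fibronectin) and CDH2 (N-cadherin) were detected on none of the 6 arrays.

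Among genes listed for the mesenchymal transition, 32 of 49 passed the filter. SW480 was higher for 22 and LS174T for 8, with a median of 1.64, and over the 20 members detected on all 6 arrays for 13 and 6. VIM, the intermediate filament vimentin, read 13.92, 13.89 and 13.87 in SW480 and 8.51, 8.45 and 8.44 in LS174T, 43.0-fold higher in SW480 (adjusted p = 3.48e-17). Its other probe was detected on all 3 SW480 arrays, at a mean of 13.22, and on no LS174T array. AXL, a receptor tyrosine kinase of invasive cells, read 10.47, 10.49 and 10.70 against 4.87, 5.00 and 4.90, at least 34.3-fold higher (adjusted p = 8.45e-17). S100A4, a calcium-binding motility protein, read 13.88, 13.72 and 13.90 against 10.14, 10.13 and 10.02, 13.3-fold higher, and EMP3, a membrane protein, 12.34, 12.17 and 12.31 against 8.04, 8.21 and 7.85, 18.9-fold higher. SPARC, a matrix glycoprotein, was at least 8.07-fold higher in SW480 (adjusted p = 4.86e-14).

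The members higher in LS174T included CDH11, the osteoblast cadherin, which only LS174T expressed (at least 5.71-fold higher, adjusted p = 2.14e-15), TGFBR2, the type II receptor for TGF-beta (-1.65 ± 0.11 (SE), adjusted p = 8.5e-10), CD70 (-1.66) and NT5E, the ecto-nucleotidase CD73 (-1.47). Fibroblast markers moved partly with the SW480 side of this list. Of 10 markers COL1A2, COL3A1, DCN, PDGFRA and THY1 were detected on no array and 3 passed the filter, 2 higher in SW480 and 1 in LS174T. The summed linear level of all 10, undetected probes included, was 1325 to 1481 on the SW480 arrays and 559 to 644 on the LS174T arrays. A linear sum follows its brightest member, in SW480 PDGFRB, and does not describe the list as a whole. PDGFRB, a growth factor receptor of pericytes and fibroblasts, read 9.82, 9.91 and 9.60 in SW480 and 5.01, 5.50 and 4.78 in LS174T (4.68 ± 0.14 (SE), adjusted p = 2.61e-14), and COL1A1, a collagen chain, differed by 1.32 ± 0.15 (SE) (adjusted p = 6.55e-07). LUM, lumican, was at least 2.73-fold higher in LS174T (adjusted p = 4.12e-09). The part of such cells in the mesenchymal differences was not tested.

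Keratins and other genes of the epithelial cytoskeleton did not follow 1 direction. Of 10 on that list that passed, 4 were higher in SW480, all of them keratins, and 5 in LS174T, among them PLS1, which bundles actin, with 2 and 4 over the 7 detected on all 6 arrays. KRT5 and KRT7, of basal and ductal epithelia, were detected in SW480 alone, KRT7 only at least 1.37-fold higher (adjusted p = 0.001). KRT19 and KRT8, keratins of simple epithelia, were bright in both lines and differed by -2.24 ± 0.08 (SE) and -0.92 ± 0.094 (SE), and KRT20, a keratin of differentiated colon, by -2.29 ± 0.12 (SE) (adjusted p = 4.7e-11). KRT18, the partner of KRT8, differed by -0.15 ± 0.14 (SE) (adjusted p = 0.346). Of integrins, laminins and collagens 11 were higher in SW480 and 10 in LS174T, and 7 and 7 of the 18 detected on all 6 arrays. ITGA5, the fibronectin receptor subunit, was at least 6.57-fold higher in SW480, and ITGB4 and ITGA6, the hemidesmosomal integrin, differed by -4.01 ± 0.14 (SE) and -2.47 ± 0.18 (SE) towards LS174T.

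**Figure D2:**
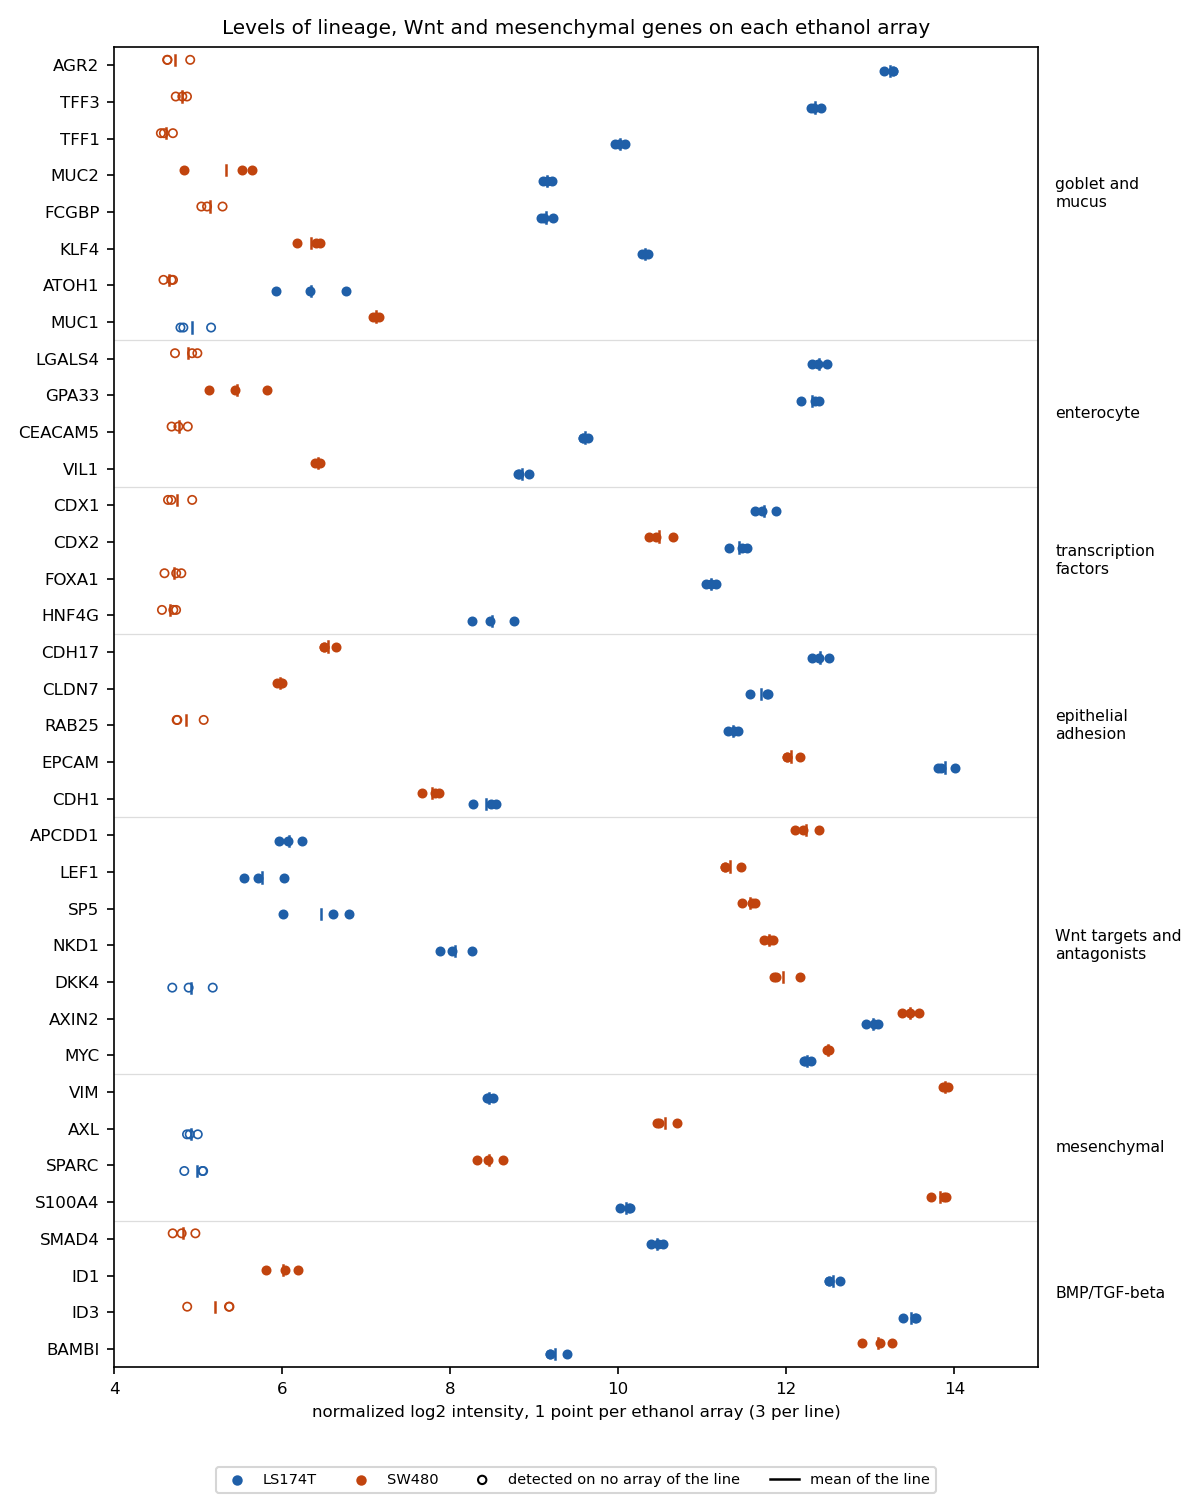
Normalized log2 intensity of selected genes on each of the 3 SW480 (orange) and 3 LS174T (blue) ethanol arrays, with open circles where no array of the line detected the probe and a tick at the mean of the line. Goblet, enterocyte and adhesion genes lie to the right in LS174T apart from MUC1, Wnt and mesenchymal genes to the right in SW480, and the difference runs from -8.51 for AGR2 to 7.05 for DKK4, both measured against an undetected probe.

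Both lines have an active Wnt pathway by background, and the genes that report it were unequal. Of 36 listed Wnt targets and antagonists, 31 passed the filter: 22 were higher in SW480 and 7 in LS174T, with a median of 1.05 (4 higher in LS174T under median scaling). Over the 19 members detected on all 6 arrays, 12 were higher in SW480 and 5 in LS174T, with a median of 0.58. LEF1, a transcription factor that carries beta-catenin to DNA, read 11.27, 11.46 and 11.27 in SW480 and 5.71, 6.02 and 5.54 in LS174T, 47.6-fold higher in SW480 (adjusted p = 2.3e-14). SP5, a zinc finger factor induced by Wnt, read 11.47, 11.59 and 11.63 against 6.79, 6.60 and 6.01, 34.2-fold higher (adjusted p = 1.4e-12). The LS174T arrays of SP5 were more spread than those of SW480.

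The 3 widest gaps of the list were those of the antagonists DKK4, NKD2 and APCDD1. APCDD1, a membrane-bound inhibitor of Wnt receptors, read 12.11, 12.39 and 12.20 in SW480 and 6.07, 6.24 and 5.96 in LS174T, 70.7-fold higher (adjusted p = 3.56e-14). DKK4, a secreted Dickkopf inhibitor, read 11.85, 12.16 and 11.88 against 4.69, 5.18 and 4.89, at least 91.2-fold higher (adjusted p = 2.4e-17). NKD2 and NKD1, which bind Dishevelled, were at least 55.5-fold and 13.4-fold higher in SW480, and DKK1, another Dickkopf protein, at least 7.28-fold higher (adjusted p = 5.1e-12). By contrast AXIN2, the scaffold of the destruction complex and the target most used as a pathway readout, was bright in both lines at 13.58, 13.37 and 13.47 and 13.05, 13.10 and 12.95 (0.44 ± 0.078 (SE), adjusted p = 8.55e-05). MYC differed by 0.26 ± 0.077 (SE) (adjusted p = 0.00777). Both of these gaps were small beside those of the antagonists.

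CTNNB1, which encodes beta-catenin, was higher in LS174T at 11.28, 11.52 and 11.67 against 9.93, 9.92 and 9.97 (-1.55 ± 0.10 (SE), adjusted p = 4.19e-10), and another probe differed by -1.65, while the third was detected in LS174T alone. APC, the tumour suppressor of the destruction complex, was near the floor, at 4.76, 5.60 and 5.67 in SW480 and 5.28, 5.63 and 5.09 in LS174T, and did not differ past the test (0.013 ± 0.24 (SE), adjusted p = 0.966). The sign of that difference turned when any of 4 single arrays was left out, to between -0.15 and -0.01. CLDN2, a pore-forming claudin and Wnt target, was at least 11.6-fold higher in LS174T (adjusted p = 7.12e-14). TNIK, a kinase of the TCF complex, differed by -1.33 ± 0.19 (SE) and LRP4, a co-receptor, by -0.87 ± 0.16 (SE), both towards LS174T.

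TCF and LEF factors bind CTTTGA, and the promoters of SP5 and DKK1 are shown because they are the Wnt genes at least 2-fold higher in SW480 whose start sites hold that core. Of 17 such genes 9 had a promoter in the table and these 2 held the core on either strand (22.2%), against 13.1% of all 27305 promoters. SP5 had 3 matches and DKK1 2. Capitals mark CTTTGA or its reverse complement TCAAAG. Here too a match in letters is no measured binding. The windows are chr2:170715087-170715386 and chr10:52314031-52314330 of GRCh38.p14, both on the plus strand.
SP5: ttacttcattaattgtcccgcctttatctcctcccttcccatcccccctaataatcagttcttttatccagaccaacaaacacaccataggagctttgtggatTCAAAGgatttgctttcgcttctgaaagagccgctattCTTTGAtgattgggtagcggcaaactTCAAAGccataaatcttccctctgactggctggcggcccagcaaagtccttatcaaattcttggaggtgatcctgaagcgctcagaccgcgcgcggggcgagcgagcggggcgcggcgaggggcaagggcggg
DKK1: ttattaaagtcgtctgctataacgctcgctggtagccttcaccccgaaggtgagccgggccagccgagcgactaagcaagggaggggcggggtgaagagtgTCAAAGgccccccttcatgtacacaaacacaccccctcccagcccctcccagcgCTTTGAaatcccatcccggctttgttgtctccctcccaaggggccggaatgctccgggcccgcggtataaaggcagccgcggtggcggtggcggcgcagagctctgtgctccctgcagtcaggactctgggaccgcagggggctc

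Stem cell markers of the crypt, several of which also answer to Wnt, lay on the other side. Of 20 listed 16 passed, 11 higher in LS174T and 5 in SW480, with a median of -2.16, and over the 9 detected on all 6 arrays 6 and 3, with a median of -1.36. EPHB3, a receptor that positions cells along the crypt, read 11.26, 11.06 and 10.92 in LS174T and 5.44, 5.73 and 5.40 in SW480 (-5.55 ± 0.14 (SE), adjusted p = 1.65e-15). LGR5, the R-spondin receptor that marks crypt stem cells, read 7.33, 7.49 and 7.18 against 5.00, 5.61 and 5.43 (-1.99 ± 0.15 (SE), adjusted p = 5.02e-09). SMOC2 and ALDH1A1 were at least 16.3-fold and at least 14.9-fold higher in LS174T. TNFRSF19, a receptor of the same crypt program, was the exception in size, at 10.89, 11.14 and 10.75 in SW480 against 5.38, 5.93 and 6.14 (5.11 ± 0.17 (SE), adjusted p = 5.31e-14). Its other probe, undetected in LS174T, differed by 1.70.

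In the TGF-beta and BMP pathway the transducer SMAD4 was present in LS174T and undetected in SW480. SMAD4, the partner of all receptor-activated SMADs, read 10.39, 10.48 and 10.53 in LS174T and 4.81, 4.97 and 4.70 in SW480, at least 33.1-fold higher in LS174T (adjusted p = 3.07e-17). ID3 and ID1, dominant-negative helix-loop-helix factors that BMP induces, were among the largest differences of the table. ID3 read 13.39, 13.54 and 13.54 against 5.37, 5.37 and 4.87, at least 269-fold higher in LS174T (adjusted p = 7.21e-17). ID1 read 12.51, 12.64 and 12.51 against 6.04, 6.19 and 5.81, 93.3-fold higher in LS174T (adjusted p = 1.22e-17), and its other probe was detected in LS174T alone. BAMBI, a decoy receptor of the pathway, was reversed at 13.26, 13.11 and 12.90 in SW480 and 9.18, 9.39 and 9.18 in LS174T, 14.3-fold higher in SW480 (adjusted p = 3.11e-15). The ligands BMP7 and BMP2 read 11.55 ± 0.14 and 6.04 ± 0.16 in SW480 against 10.05 ± 0.076 and 4.85 ± 0.055 in LS174T (SD, n = 3), and GREM1, which traps BMPs, differed by -1.92 ± 0.19 (SE) towards LS174T. Over the whole list of 35, 23 passed, 9 higher in SW480 and 11 in LS174T, with a median of -0.32, and 7 and 8 of the 17 detected on all 6 arrays.

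HOX genes, which record position along the body axis, were higher in SW480. Of 39 listed, 29 had a named probe and 22 passed the filter, 8 of them detected in SW480 alone. SW480 was higher for 16 and LS174T for 3, with a median of 1.44, or 0.88 with undetected genes at their bound. Over the 10 detected on all 6 arrays the counts were 5 and 3 and the median 0.30. HOXB2 read 10.46, 10.26 and 10.55 in SW480 and 5.86, 5.66 and 5.35 in LS174T (4.80 ± 0.16 (SE), adjusted p = 9.99e-14), and HOXC8 9.18, 9.06 and 9.25 against 4.70, 4.65 and 4.63, at least 13.1-fold higher (adjusted p = 4.3e-15). HOXC6 was detected in both lines and was 7.48-fold higher in SW480 (adjusted p = 1.03e-13), but its dimmer probe differed by 0.18 (adjusted p = 0.476). All 7 HOXC genes that passed were higher in SW480, as were HOXD8 to HOXD11. Any of these detected in SW480 alone, as HOXC8 was, entered through that line and had to be higher there. The HOXB cluster was mixed, since HOXB5 differed by -0.56 ± 0.079 (SE) and HOXB13 by -0.56 ± 0.19 (SE) towards LS174T, while HOXB7 and HOXB8 were bright in both lines and differed by 0.33 and 0.27. HOXA2, the third member higher in LS174T, differed by -0.55 ± 0.12 (SE), and its other probe by -0.27 (adjusted p = 0.185). HOXB13 did not pass the test without LS174T replicate 1 (-0.45), LS174T replicate 2 (-0.48) or SW480 replicate 2 (-0.49), nor under median scaling (-0.38).

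**Figure D3:**
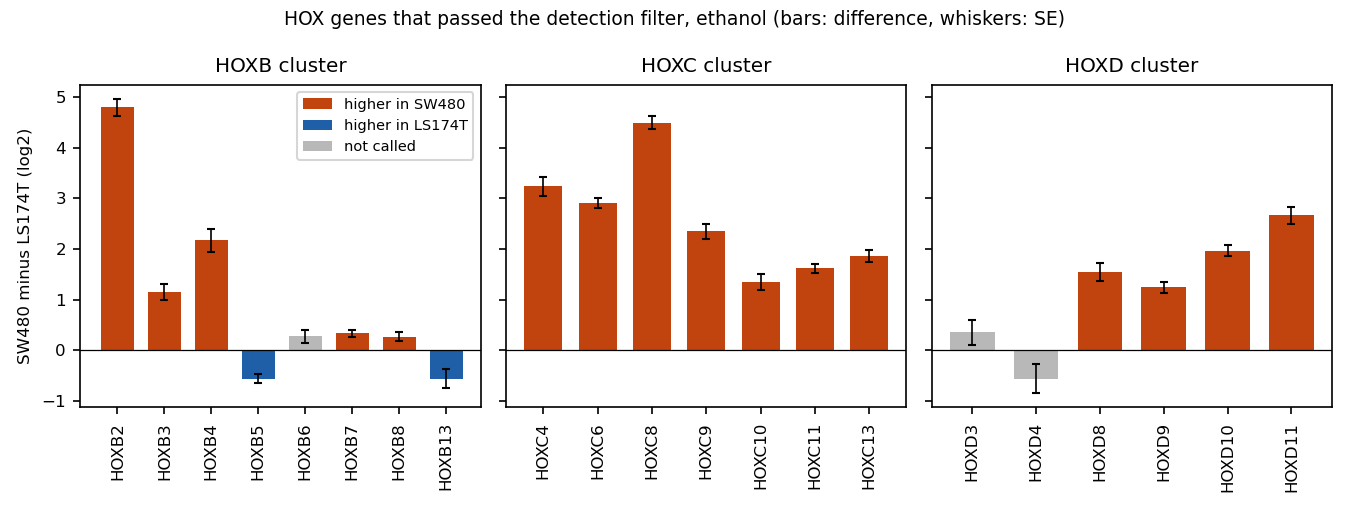
Difference of mean normalized log2 intensity, SW480 minus LS174T in ethanol, for the HOXB, HOXC and HOXD genes that passed the detection filter, in cluster order, with whiskers of 1 SE (n = 3 arrays per line). Bars are orange where called higher in SW480, blue where called higher in LS174T and grey where not called. HOXB2 at 4.80 and HOXC8 at 4.50 are the tallest bars, HOXC8 against an undetected LS174T probe, and HOXB5 and HOXB13 fall to -0.56.

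Genes of the growth factor pathways leaned towards SW480. Of the 33 listed genes of ERK feedback and its ligands, 26 passed, 16 higher in SW480 and 9 in LS174T, with a median of 0.88, and over the 23 detected on all 6 arrays 15 and 7. FOS, an immediate early transcription factor, read 10.40, 10.56 and 10.47 in SW480 and 5.20, 5.79 and 5.61 in LS174T (4.94 ± 0.13 (SE), adjusted p = 4.23e-15). DUSP5, a phosphatase that switches ERK off, read 10.73, 10.87 and 10.69 in SW480 and 7.75, 7.93 and 8.02 in LS174T, 7.27-fold higher in SW480 (adjusted p = 5.7e-14). DUSP6, another ERK phosphatase, was 4.20-fold higher in SW480. SPRY4, a Sprouty inhibitor of receptor signalling, was 3.96-fold higher in SW480, while SPRY2 differed by -0.90 towards LS174T. The receptor ERBB3 was 7.68-fold higher in LS174T (adjusted p = 1.77e-14), as were the EGF-family ligands BTC and EREG, at least 2.43-fold and at least 2.47-fold. PHLDA1 differed by -1.88 ± 0.10 (SE).

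On the insulin-like growth factor axis, 10 of 15 genes that passed were higher in SW480 and 5 in LS174T, a count that fell to 3 without SW480 replicate 1 and under median scaling. Of the 9 detected on all 6 arrays 6 were higher in SW480 and 3 in LS174T. The binding proteins IGFBP7, IGFBP5 and IGFBP6, which hold the growth factors in the medium, were higher in SW480, IGFBP7 at 9.92, 10.19 and 10.18 against 5.09, 5.51 and 5.24 (4.82 ± 0.18 (SE), adjusted p = 3.96e-13), IGFBP5 at least 9.25-fold and IGFBP6 5.67-fold. The other IGFBP5 probe, undetected in LS174T, differed by 1.61. IGF1R, the receptor, differed by 2.37 ± 0.28 (SE) towards SW480 (adjusted p = 1.22e-06), with LS174T arrays spread at 6.60, 6.02 and 5.14. IRS2, the adaptor of the insulin receptor, differed by -1.17 ± 0.12 (SE) towards LS174T. H19, described above, lies beside IGF2 in the genome, and IGF2 itself was detected on none of the 6 arrays.

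Cell cycle and replication genes were slightly higher in SW480. Of 44 listed 43 passed and 42 were detected on all 6 arrays, so that entry through 1 line played almost no part. SW480 was higher for 27, LS174T for 4, and 12 did not pass the test, with a median of 0.37. Differences were small, with 4 members at least 2-fold higher in SW480 and 1 in LS174T. TOP2A, the DNA topoisomerase of dividing cells, read 12.51, 12.45 and 12.36 against 10.97, 11.08 and 11.32 (1.31 ± 0.09 (SE), adjusted p = 1.2e-09), CCND1, cyclin D1, 13.20, 13.21 and 13.19 against 12.15, 12.21 and 12.09 (1.05 ± 0.072 (SE), adjusted p = 1.17e-09), and E2F2 differed by -1.18 ± 0.093 (SE) towards LS174T. Under median scaling, which moved the median of all genes to 0.16, the counts were 31 and 2.

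Of 8 listed inhibitors of cyclin-dependent kinases and related genes that passed, 5 were higher in SW480 and 2 in LS174T, and 2 and 2 of the 5 detected on all 6 arrays. CDKN2A, which encodes p16 and p14ARF, read 8.90, 8.79 and 8.70 in SW480 and 4.57, 4.72 and 4.49 in LS174T, undetected there and at least 10.2-fold higher in SW480 (adjusted p = 4.14e-16). CDKN1C, the imprinted inhibitor p57, differed by 3.12 ± 0.18 (SE) and CDKN2B, which encodes p15, by 1.45 ± 0.19 (SE), both towards SW480. CDKN1A, which encodes p21 and is the best known p53 target, read 12.18, 12.45 and 12.21 in LS174T and 10.13, 10.25 and 10.40 in SW480, 4.05-fold higher in LS174T (adjusted p = 3.58e-12). The listed p53 targets, CDKN1A among them, did not share a side: of 29 that passed 8 were higher in SW480 and 11 in LS174T, with a median of -0.09. GDF15, a stress cytokine, was at least 15.6-fold higher in LS174T and TP53INP1 4.53-fold higher, whereas BAX, the pro-apoptotic channel protein, was at least 2.37-fold higher in SW480 and ZMAT3, an RNA-binding target, 2.95-fold in its brightest probe. The other ZMAT3 probes differed by 3.91 and, towards LS174T, by -0.36 (adjusted p = 0.000672), so its direction is uncertain.

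Redox and detoxifying enzymes made up another LS174T group. Of 46 listed genes of glutathione metabolism, NRF2 and the aldo-keto reductases, 38 passed, 25 higher in LS174T and 10 in SW480, with a median of -0.66, and over the 28 detected on all 6 arrays 19 and 6. GPX2, the gastrointestinal glutathione peroxidase, read 13.21, 13.23 and 13.13 in LS174T and 6.27, 5.73 and 5.62 in SW480, 160.1-fold higher in LS174T (adjusted p = 1.8e-16). MGST1, a membrane-bound glutathione transferase, read 12.77, 12.66 and 12.64 against 6.27, 6.21 and 6.24, 87.4-fold higher (adjusted p = 5.82e-18). Its other probes differed by -5.90 and -3.05. AKR1C3 and AKR1C4, steroid-reducing aldo-keto reductases, differed by -7.49 ± 0.13 (SE) and -6.29 ± 0.19 (SE), with the reserve that AKR1C genes are near copies and their probes may not separate them. ALDH3A1, an aldehyde dehydrogenase, was at least 90.9-fold higher in LS174T (adjusted p = 5.95e-18).

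Members higher in SW480 included mu-class transferases. GSTM1, which conjugates glutathione, read 10.07, 10.32 and 10.08 against 4.54, 4.81 and 4.78, at least 26.0-fold higher in SW480 (adjusted p = 1.55e-17), and GSTM2 and GPX3, the secreted peroxidase, were at least 9.98-fold and at least 11.3-fold higher. The other GSTM2 probe, also undetected in LS174T, differed by 0.83. Among xenobiotic and steroid enzymes, 24 of 34 that passed were higher in LS174T and 6 in SW480, and 18 of the 34 were detected in LS174T alone. Over the 12 detected on all 6 arrays the counts were 6 and 3. UGT1A6 and UGT1A1, which conjugate drugs and bilirubin with glucuronic acid, were at least 32.0-fold and at least 25.9-fold higher in LS174T, though UGT1A genes share exons and a probe may read several. CYP2J2, an arachidonic acid epoxygenase, read 10.84, 10.81 and 10.67 against 6.55 ± 0.13 (SD, n = 3) (-4.23 ± 0.13 (SE), adjusted p = 2.49e-14). CYP27A1, the sterol 27-hydroxylase, differed by 3.45 ± 0.16 (SE) towards SW480 (adjusted p = 9.56e-12).

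The genes of vitamin D handling, the subject of the treated arrays, already differed in ethanol. CYP24A1, which breaks calcitriol down, read 9.20, 9.31 and 9.02 in SW480 and 4.87, 4.61 and 4.57 in LS174T, undetected there and at least 13.2-fold higher in SW480 (adjusted p = 4.39e-16). VDR, the receptor for calcitriol, went the other way at 8.45, 8.29 and 8.12 in LS174T and 6.65, 6.98 and 7.34 in SW480 (-1.29 ± 0.18 (SE), adjusted p = 9.04e-06). CYP27B1, which makes calcitriol, was at least 1.87-fold higher in SW480 (adjusted p = 8.87e-07).

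Cholesterol synthesis genes were nearly uniform in direction. All 21 with a named probe were detected on all 6 arrays, 17 were higher in LS174T, 2 in SW480 and 2 did not pass the test, with a median of -1.29. HMGCS1, an early enzyme of the pathway, read 12.63, 12.52 and 12.38 in LS174T and 9.81, 10.03 and 9.90 in SW480, 6.05-fold higher in LS174T (adjusted p = 1.3e-12). MVD, a decarboxylase of the mevalonate branch, read 9.36, 9.21 and 9.37 against 6.42, 6.17 and 6.42, 7.86-fold higher (adjusted p = 2.39e-11), and INSIG1, a sterol-sensing regulator, 13.07 ± 0.11 against 10.94 ± 0.30 (SD, n = 3), 4.37-fold higher (adjusted p = 1.67e-10). The exceptions were HSD17B7, a late enzyme of the pathway, at 1.44 ± 0.13 (SE), and STARD4, a sterol carrier, at 0.54 ± 0.19 (SE), whose arrays lay close at 6.81, 7.02 and 6.54 against 5.95, 6.31 and 6.49. The STARD4 difference did not pass the test without LS174T replicate 1 (0.39) or without SW480 replicate 2 (0.42), and it was -0.16 on the calcitriol arrays.

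Interferon response genes were also higher in LS174T. Of 41 listed 37 passed, 23 higher in LS174T and 8 in SW480, with a median of -1.34, and over the 23 detected on all 6 arrays 13 and 5. IFI27 read 11.56, 11.52 and 11.45 in LS174T and 5.73, 5.51 and 6.07 in SW480, 53.5-fold higher in LS174T (adjusted p = 8.51e-15). EPSTI1 differed by -2.41 ± 0.18 (SE), and IFI44, undetected in SW480, was at least 3.89-fold higher in LS174T. OAS1, a sensor of double-stranded RNA, differed by -2.47 ± 0.16 (SE) in its brightest probe, and its other probes by -3.44 and 0.24. MX2, OAS2 and BST2, which restrict viruses, went the other way, MX2 at 7.40, 7.39 and 7.44 in SW480 against 4.77, 4.92 and 4.84 (at least 3.87-fold higher, adjusted p = 8e-15), OAS2 at least 2.42-fold and BST2 3.57-fold higher in SW480.

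Antigen presentation by class I molecules was mixed. Of 16 genes that passed 5 were higher in SW480 and 7 in LS174T, 4 under median scaling, and of the 14 detected on all 6 arrays 4 and 6. HLA-B, a heavy chain, read 8.93, 9.16 and 9.27 in SW480 and 4.97, 4.90 and 4.84 in LS174T, at least 12.7-fold higher in SW480 (adjusted p = 1.17e-14), while HLA-E differed by -1.39 ± 0.07 (SE) towards LS174T. HLA genes vary between people and resemble each other, so a probe may read alleles and members unequally. The immunoproteasome genes PSMB9 and PSMB8 were at least 7.51-fold and 3.96-fold higher in LS174T, although the dimmer probe of PSMB9 differed by -0.52 (adjusted p = 0.107). The subunits of the peptide transporter parted, TAP1 differing by -1.21 ± 0.085 (SE) and TAP2 by 1.64 ± 0.12 (SE). B2M, the shared light chain, differed by -0.20 ± 0.078 (SE) (adjusted p = 0.0277).

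Of 35 listed inflammatory genes 33 had a named probe and 21 passed, 10 higher in SW480 and 3 in LS174T. Their median was 0.49, and 4 of the 21 were detected in SW480 alone. Over the 9 detected on all 6 arrays the counts were 3 and 3 and the median 0.055. NOS2, the inducible nitric oxide synthase, read 8.88, 9.21 and 9.34 in SW480 and 5.79, 5.59 and 4.69 in LS174T (3.79 ± 0.22 (SE), adjusted p = 1.03e-10), and SAA1, an acute phase protein, was at least 5.26-fold higher in SW480. LCN2, an iron-trapping lipocalin of mucosa, read 10.96, 10.88 and 10.71 in LS174T against 6.23, 6.35 and 6.07 (24.8-fold higher in LS174T, adjusted p = 3.46e-14), and the chemokine CXCL16 and the cytokine IL32 were 6.90-fold and 4.09-fold higher there.

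Glycolysis and hypoxia genes did not share a side. Of 34 that passed 13 were higher in SW480, 7 in LS174T and 14 did not pass the test, with a median of 0.12. EPAS1, which encodes the hypoxia factor HIF-2 alpha, read 11.45, 11.55 and 11.45 in SW480 and 6.55, 6.56 and 6.44 in LS174T, 31.2-fold higher in SW480 (adjusted p = 7.91e-17). SLC2A1, the ubiquitous glucose transporter, read 13.20, 13.17 and 13.34 against 9.77, 9.51 and 9.50, 12.5-fold higher (adjusted p = 1.94e-15). BNIP3, a mitochondrial protein of hypoxic cells, read 10.72, 10.98 and 10.91 in LS174T against 5.76, 5.50 and 5.68, 37.3-fold higher in LS174T (adjusted p = 3.38e-15), and VEGFA, the angiogenic growth factor, differed by -1.90 ± 0.19 (SE). GAPDH, a glycolytic enzyme often used as a reference, differed by -0.056 ± 0.077 (SE) (adjusted p = 0.539).

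Smaller families gave single large values. Among metallothioneins, which bind zinc and copper, MT1G and MT1H were 12.1-fold and 9.81-fold higher in LS174T and MT2A 2.72-fold higher in SW480, with the reserve that MT1 genes are close copies. S100A3 was 19.1-fold higher in SW480 and S100A14 6.97-fold higher in LS174T. Of 9 mismatch repair genes that passed, 3 were higher in SW480 and 1 in LS174T. MSH6, which recognises mismatches, read 11.89, 12.07 and 11.99 in SW480 and 10.62, 10.65 and 10.56 in LS174T (1.37 ± 0.091 (SE), adjusted p = 7.56e-10), and PMS1 differed by -0.90 ± 0.26 (SE) towards LS174T (adjusted p = 0.0057).

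Ribosomal protein genes differed little. All 35 with a named probe passed and 29 of them did not pass the test, with a median of -0.02, 3 higher in SW480 and 3 in LS174T (3 and 5 under median scaling). RPS7 stood out at 12.61, 12.23 and 12.44 in SW480 against 10.01, 10.12 and 9.99 (2.39 ± 0.10 (SE), adjusted p = 1.41e-12), and its other probe differed by 2.46. RPL14 differed by -1.44 ± 0.091 (SE) and its other probe by -0.42.

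**Figure D4:**
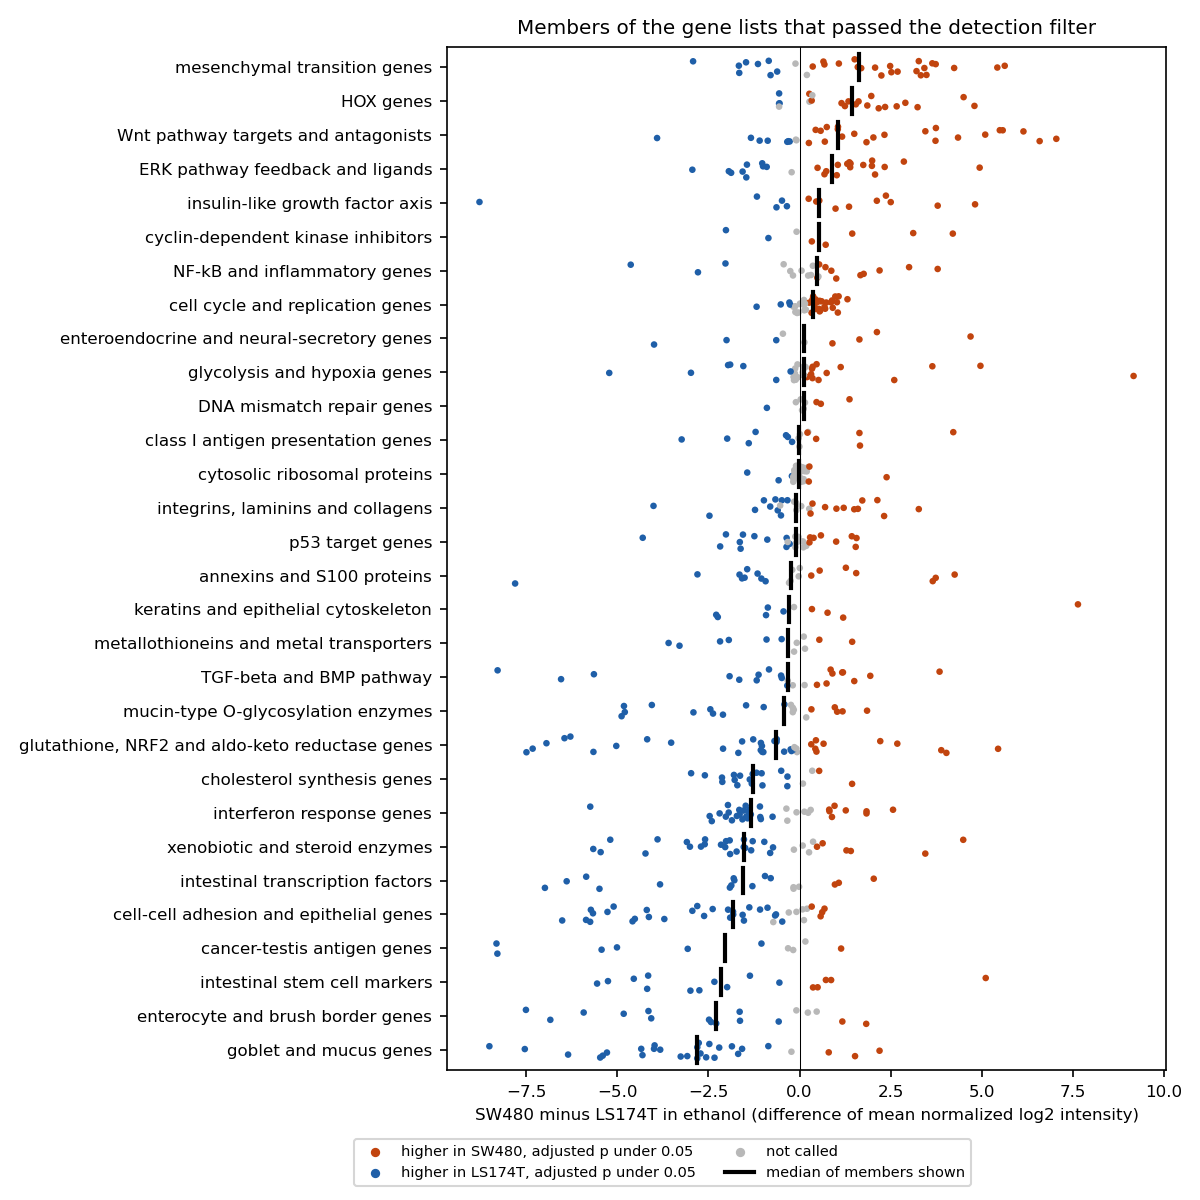
Difference of mean normalized log2 intensity, SW480 minus LS174T in ethanol, for the members of each gene list that passed the detection filter (1 point per gene, orange or blue where called higher in SW480 or LS174T, grey where not called), with a bar at the median of the list. Lists run from mesenchymal transition genes at a median of 1.64 to goblet and mucus genes at -2.81, and ribosomal protein genes lie around -0.02.

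By chromosome, the medians of genes detected on all 6 arrays were unequal, with wide spreads within each chromosome. Genes of chromosome 18 had a median of -0.51 over 123 genes, the lowest, and those of chromosomes 4, 15, 16 and 22 medians of -0.32, -0.32, -0.31 and -0.31. Genes of chromosome X had a median of 0.47 over 306 genes and those of chromosome 20 one of 0.43 over 264, against -0.02 over the 9482 genes with a probe detected on all 6 arrays. That reference chose the probe of each gene anew among probes on all 6 arrays. It is therefore a slightly larger set than the genes counted by chromosome. Of the called genes of chromosome 20, here among all 346 that passed the filter, 78.7% were higher in SW480. Over the called genes of all chromosomes the share was 50.0%, or 60.5% under median scaling. The quartiles of chromosome 18, where SMAD4 lies, ran from -1.13 to 0.36, and SMAD4, undetected in SW480, is not among those genes. The calcitriol arrays gave medians of -0.57 for chromosome 18, 0.47 for chromosome 20 and 0.49 for chromosome X.

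**Figure D5:**
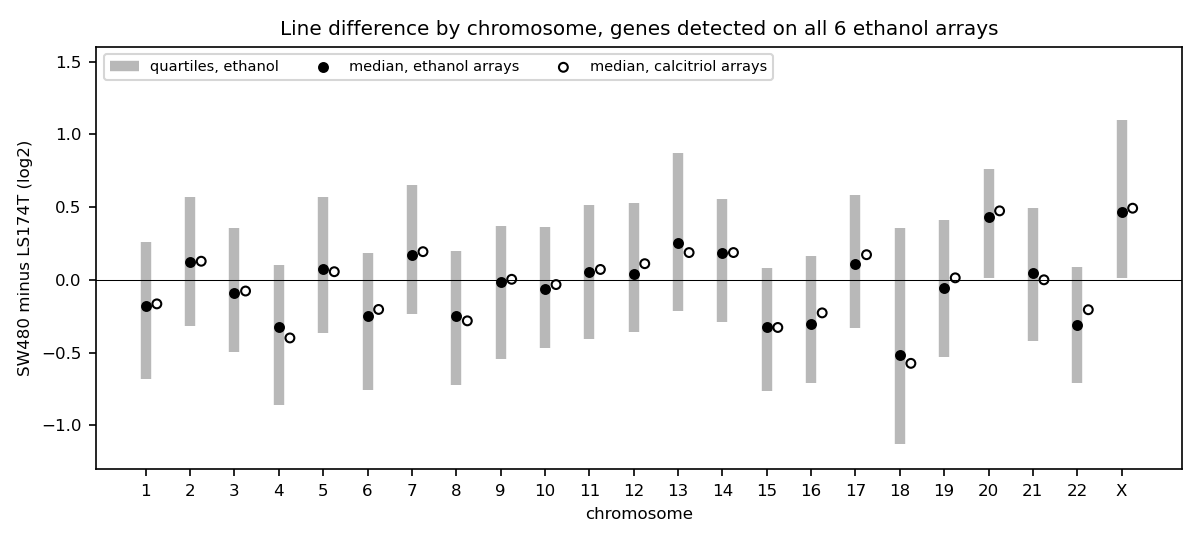
Difference of mean normalized log2 intensity, SW480 minus LS174T, over genes detected on all 6 ethanol arrays, by chromosome. Grey bars span the quartiles and filled points give the median in ethanol, and open points the median of the same genes on the calcitriol arrays. Chromosomes X and 20 lie highest at 0.47 and 0.43 and chromosome 18 lowest at -0.51.

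The calcitriol arrays of the same lines, 3 per line, gave a line difference of their own, though they shared the normalization and the variance estimates of the fit. Of the 8520 genes called in ethanol, 8296 had the same sign there and 7375 were called in the same direction. Of the 3688 with at least 2-fold, 3684 kept the sign and 3627 were called in the same direction. The change of the line difference between ethanol and calcitriol passed the test for 421 genes of the whole table, 374 of them among those called in ethanol. CYP24A1 was among them and turned from 4.49 in ethanol to -2.42 in calcitriol, the ethanol value being measured against an undetected LS174T probe. The goblet gene AGR2, measured against an undetected SW480 probe, and the Wnt gene LEF1 differed by -8.51 and 5.57 in ethanol and -8.07 and 5.54 in calcitriol.

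HCT116 in ethanol, the remaining line, did not side with the same line throughout. In HCT116 the goblet genes AGR2 and TFF3 and the CDX1 probe were undetected, as in SW480, and the Wnt genes LEF1, SP5 and APCDD1 were detected on at most 1 array, with levels of 5.24 ± 0.21, 5.22 ± 0.11 and 5.03 ± 0.38 (SD, n = 3). SMAD4 at 10.69 ± 0.084, RAB25 at 11.50 ± 0.091, ID1 at 12.99 ± 0.073 and CLDN7 at 11.12 ± 0.054 were bright in HCT116 as in LS174T. TMEM158 at 11.20 ± 0.089, ALDH7A1 at 11.97 ± 0.03 and EMP3 at 12.17 ± 0.08 were bright there as in SW480. These values are given side by side without a test, since any comparison with HCT116 would share arrays with the one described here.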

How the data were processed

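The authors deposited linear, unnormalized probe intensity, each value with its detection p-value, per the file headers. They also deposited a log2 table of the same arrays, and the submitters' processing notes name limma without a version. How bead signals were summarised was not given in any source used here. All 18 raw columns matched their own deposited log2 array best, with a median difference of 0.00021 (log2) from the values computed here and a largest of 0.20.

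From the raw intensities all 18 arrays were background-corrected and quantile-normalized with neqc of limma 3.58.1 in R 4.3.3 (offset 16, background from the detection p-values), leaving out 887 rows without an identifier. Of 47323 probes, GEO's platform annotation listed 30113 with 1 symbol and 8 with several, 17202 were absent from it, and 30074 symbols were updated through Entrez identifiers to RefSeq GRCh38.p14. No genome build is named in the files, and promoter coordinates are those of the RefSeq table. Using lmFit and eBayes, a mean per group was fitted over the 18 arrays, the contrast of SW480 and LS174T in ethanol was taken on the 16333 probes detected (p under 0.05) on at least 3 of the 6 arrays, and Benjamini-Hochberg adjusted p-values were read at a threshold of 0.05. Of 12252 genes 3229 had several passing probes, and in 159 of them probes were called in opposite directions. Other probes of a gene can give a smaller difference than the brightest one, which is the one printed. The script was tested on simulated data with known differences.

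The genes named are, per line, the 12 with the largest bound among genes detected in that line alone, the 12 with the largest difference among genes detected on all 6 arrays, up to 4 members per list and direction, and a fixed set of key genes. Both groups of 12 were drawn only from genes past the test whose lines did not overlap. TFF1, FCGBP, KLF4, HNF4G, NKD1, SPARC, DKK1, CRB3, KRT18, GAPDH, HOXB7, HOXB8, B2M, SPRY4 and SPRY2 are members of the lists named after their values were seen, and the promoters shown were chosen the same way. Members, lists and rules were all chosen with earlier results of these data known. A list gets counts and a median, and no set test. Key genes without a named probe are not analysed here. Replicates that share a number did not deviate together (correlations of -0.07, -0.01 and -0.07 between lines), so the numbers were not used as pairs.

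Alternatives were no background correction, median scaling, the deposited table, another offset, 3 other detection filters, only the 6 arrays, a trended robust prior, a replicate block, the dimmest probe, leaving out each array and the calcitriol arrays. Only 3 arrays per line limit the precision.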

Additional observations from a re-analysis of the deposited data

Results flagged for a closer look

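For 25 of the 263 named genes the difference between the lines was not the same in calcitriol as in ethanol, by the limma test of the change of the difference (calcitriol minus ethanol, adjusted p under 0.05 over all probes). Among the 25 named genes the sign turned in CYP24A1 alone, the change being -6.915 (adjusted p = 2.39e-14), from 4.49 in ethanol to -2.42 in calcitriol. FOS moved by -3.123 (adjusted p = 1.15e-07), and a difference of 4.94 in ethanol was 1.82 in calcitriol. The difference of UGT1A1 moved by -1.782, of GDF15 by -1.708 and of CLDN2 by -1.514, all widening the lead of LS174T.

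Among goblet and lineage genes the change was 0.9702 for ATOH1, -0.5379 for GCNT3, -0.5481 for EHF, -0.896 for MAF, 0.7534 for GAST and -0.7418 for RIMBP2. Among Wnt and crypt genes it was -0.9471 for DKK4 and -0.6067 for LRIG1. Keratins gave 0.517 for KRT19 and 1.145 for KRT80, and matrix genes 1.239 for COL1A1 and 0.9076 for LUM. The change was -0.9608 for PHLDA1, -0.9059 for IGFBP5 and -0.661 for NPTX2. It was -0.539 for MX2 and 0.5776 for OAS2, 1.396 for MT4, -0.7957 for CYP3A7 and 0.5421 for TM7SF2.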

How the results depend on the processing

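The count of 8520 genes past the test lay between 8155 and 8773 under other settings that kept every gene, at 6593 over genes read by probes detected on all 6 arrays, and at 8101 to 8236 with 1 array left out. A replicate block gave 8477, of which 8417 were the same genes in the same direction, and the check of the pairing showed numbers that do not pair. The block ended no other call among the named genes than that of INSR (adjusted p = 0.0541). The count at 2-fold, 3688, fell to 2004 without background correction (1013 higher in SW480, 991 in LS174T) and to 2158 over probes detected on all 6 arrays (1022 and 1136). With 1 array left out it was 3617 to 3714. Median scaling kept 7462 of the 8520 calls, turned 22 signs, and moved the share higher in SW480 from 50.0% to 60.5%, and at 2-fold from 51.0% to 60.2%. Few of the 263 named genes turned sign. APC, never called, went to -0.015 without background correction, to between -0.15 and 0.30 with 1 array left out, and to -0.081 on the calcitriol arrays. Read by the dimmest probe, CD68 went to -0.62, CMTM3 to -0.067, GRB10 to 0.26 and OAS1 to 0.24. On the calcitriol arrays CYP24A1 went to -2.42, HOXB13 to 0.21 and STARD4 to -0.16, and CDH1, at -0.20, was no longer called (adjusted p = 0.071). RPL22 went to 0.0051 under median scaling. The cause was not tested. Requiring detection on all 6 arrays moved 32 list counts by over 1.5 times, through fewer genes tested, and the report prints both for most lists it counts. Dim probes limit the folds, which are lower bounds where a line did not detect a gene.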
